A study of Homo sapiens with 30 samples.

Results

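Polyamine synthesis and turnover was followed through 10 genes, chosen by symbol and found once each among 18132 entries of an RNA-seq count table and 20582 entries of a PRO-seq count table. They are the synthesis enzymes ODC1, AMD1, SRM and SMS, the turnover enzymes SAT1, SMOX and PAOX, the antizymes OAZ1 and OAZ2, and the antizyme inhibitor AZIN1. All 10 passed the filter on low counts in every fit. The cells were G401, an established human malignant rhabdoid tumour line from kidney, and a derivative named DTMYC. DTMYC cells carry c-MYC on a lentivirus, fused at its N-terminus to an HA-FKBP12F36V tag, and their endogenous MYC gene was removed with CRISPR-Cas9. The labels do not say whether DTMYC is a single clone, nor which promoter drives the lentiviral MYC. dTAG47 is a compound that leads to degradation of the tagged protein, and DMSO is its solvent.

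RNA-seq was made after 24 h from parental G401 in DMSO, parental G401 in 500 nM dTAG47, DTMYC in DMSO and DTMYC in 500 nM dTAG47, with 3 libraries each. Parental cells hold no tagged MYC, so their pair of groups measures the response to the compound itself. PRO-seq, which counts engaged RNA polymerases, came from DTMYC cells after 4 h in DMSO or 500 nM dTAG47 (2 libraries each). MYC ChIP-seq was made from DTMYC cells after 4 h (2 DMSO libraries, numbered 1 and 3, and 3 dTAG47 libraries), and ATAC-seq, which maps open chromatin, after 24 h (3 libraries each).

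Polyamines (putrescine, spermidine and spermine) are small positively charged molecules that bind nucleic acids and are needed for cell growth. ODC1 makes putrescine from ornithine, AMD1 supplies decarboxylated S-adenosylmethionine, and SRM and SMS use it to build spermidine and then spermine. Antizymes carry ODC1 protein to the proteasome when polyamines are abundant, AZIN1 binds antizymes in place of ODC1, SAT1 acetylates polyamines for export or breakdown, and PAOX and SMOX oxidise them. ODC1 is a textbook target gene of MYC, which with its partner MAX binds the E-box CACGTG.

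The sequences shown are the copies of CACGTG inside the MYC regions at the start sites of ODC1, SRM and AMD1, the synthesis genes whose values the results turn on. They are given in hg19, 5′ to 3′ on the gene's own strand, with the motif in capitals. In the transcript that GENCODE marks as canonical every copy lies in an intron, except the ODC1 copy upstream of the gene. The last ODC1 copy listed and both SRM copies also overlap an untranslated exon of another transcript.
ODC1, chr2:10588894-10588993, minus strand: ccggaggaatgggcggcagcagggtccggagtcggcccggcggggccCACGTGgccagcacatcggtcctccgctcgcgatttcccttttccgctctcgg
ODC1, chr2:10588152-10588177, minus strand: gggccccgggCACGTGtgcggcgcgc
ODC1, chr2:10588118-10588143, minus strand: cctgcggagaCACGTGgtcgccgagc
SRM, chr1:11119609-11119634, minus strand: cgccccgctcCACGTGtcagccctca
SRM, chr1:11119519-11119544, minus strand: cgttcctcgcCACGTGtcaccatcgc
AMD1, chr6:111197659-111197758, plus strand: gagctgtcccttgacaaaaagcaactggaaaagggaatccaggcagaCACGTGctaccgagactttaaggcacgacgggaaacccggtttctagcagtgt

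Counted from the start of the transcript used in PRO-seq, the upstream ODC1 copy lies at -493 and the intronic pair at 286 and 320, 34 bases apart. On the same count the SRM pair lies at 467 and 557, 90 bases apart, and the AMD1 copy at 1719. From the nearest annotated start site, counted to the motif's last base, the ODC1 pair lies at -22 and 8. The SRM pair lies at 124 and 214 on that count. The AMD1 copy, counted to its first base, lies at 928 from the nearest annotated start site. CACGTG was present in the central 300 bases of 25.26% of 4272 MYC regions from the DMSO libraries. Both ODC1 regions (458 and 444 bases) and the SRM region (580 bases) hold all of their copies within those central 300 bases. The AMD1 copy lies 676 bases from the middle of its region, which is longer (1534 bases). That region joins separate peaks of DMSO library 1. The AMD1 copy lies inside the peak that runs from 1349 to 1812 bases after the PRO-seq start. A copy's place relative to the central 300 bases thus depends on the length of the region. RefSeq promoter windows (GRCh38.p14, 250 bases before to 50 bases after a start) were matched for 7 of the 10 genes. CACGTG was present for ODC1 and SRM, and in 7.256% of all 35116 windows. A gene with several windows was counted if any of them held the letters, so counts of genes and shares of windows are not directly comparable. For ODC1 the upstream window held no CACGTG, and a window further downstream held 2 copies. Those copies are spaced like the intronic pair and appear to be that pair, so they are not separate evidence. The SRM copy in its window lay at -199, upstream of that window's start, and is not part of the printed SRM pair. The MYC region of SRM lies downstream, from 317 to 896 bases after the PRO-seq start. The related letters CACGCG were present for 1 of the 7 (11.43% of all windows) and CATGTG for 0 (11.1%). Both strands were searched, and a match is a description of letters only.

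MYC regions lay at the start sites of 4 of the 10 genes in the DMSO libraries, namely ODC1, SRM, AMD1 and AZIN1. A region is the union of overlapping DMSO peaks, counted where its midpoint lies within 1000 bases of an annotated start site, and the background was 25.2% of the protein-coding genes tested in RNA-seq. Only AMD1 and AZIN1 had a peak in both DMSO libraries, a condition met by 7.91% of those genes. Each peak carries the authors' score, taken here to be the −log10 q value of the peak caller multiplied by 10.

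ODC1 had a region of 458 bases at chr2:10587912-10588369 with a score of 144 in DMSO library 1, and a region upstream at chr2:10588848-10589291 with a score of 92 in the same library. DMSO library 3 had no peak at either, and no dTAG47 library did. SRM had a region at chr1:11119195-11119774 with a score of 100 in DMSO library 1, again with no peak in DMSO library 3 or after dTAG47. These regions of ODC1 and SRM therefore rest on 1 library, the one with 4010 peaks against 1519 in DMSO library 3. AMD1 had a region at chr6:111196266-111197799 with scores of 53 and 28 in DMSO libraries 1 and 3, and dTAG47 library 3 kept a peak inside it with a score of 45. The AZIN1 region on chromosome 8 scored 23 and 61 in DMSO libraries 1 and 3 and had no peak after dTAG47. Among 1068 regions with a peak in both DMSO libraries, ordered by the lower of the DMSO scores, AMD1 ranked 925 and AZIN1 ranked 1003. The dTAG47 libraries held 408, 7 and 193 peaks in all, so a missing peak there says little, above all in library 2.

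The other 6 genes had no MYC region at a start site. Counted from the nearest start site, with negative values upstream, the closest region had its midpoint at -33377 for OAZ1, -115745 for SAT1, -124627 for SMOX, -286525 for OAZ2 and -862328 for PAOX. For SMS it was at 1726486. Open chromatin was called within 1000 bases of a start site in all 6 ATAC-seq libraries for 9 of the 10 genes. OAZ1 had a peak in DMSO library 2 and dTAG47 libraries 1 and 2, with scores of 40, 48 and 65. Single libraries had such a peak at 80.1% to 86.4% of the protein-coding genes tested in RNA-seq. Peak scores move with the unknown depth of each library, and no change of openness was read from them.

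**Figure D1:**
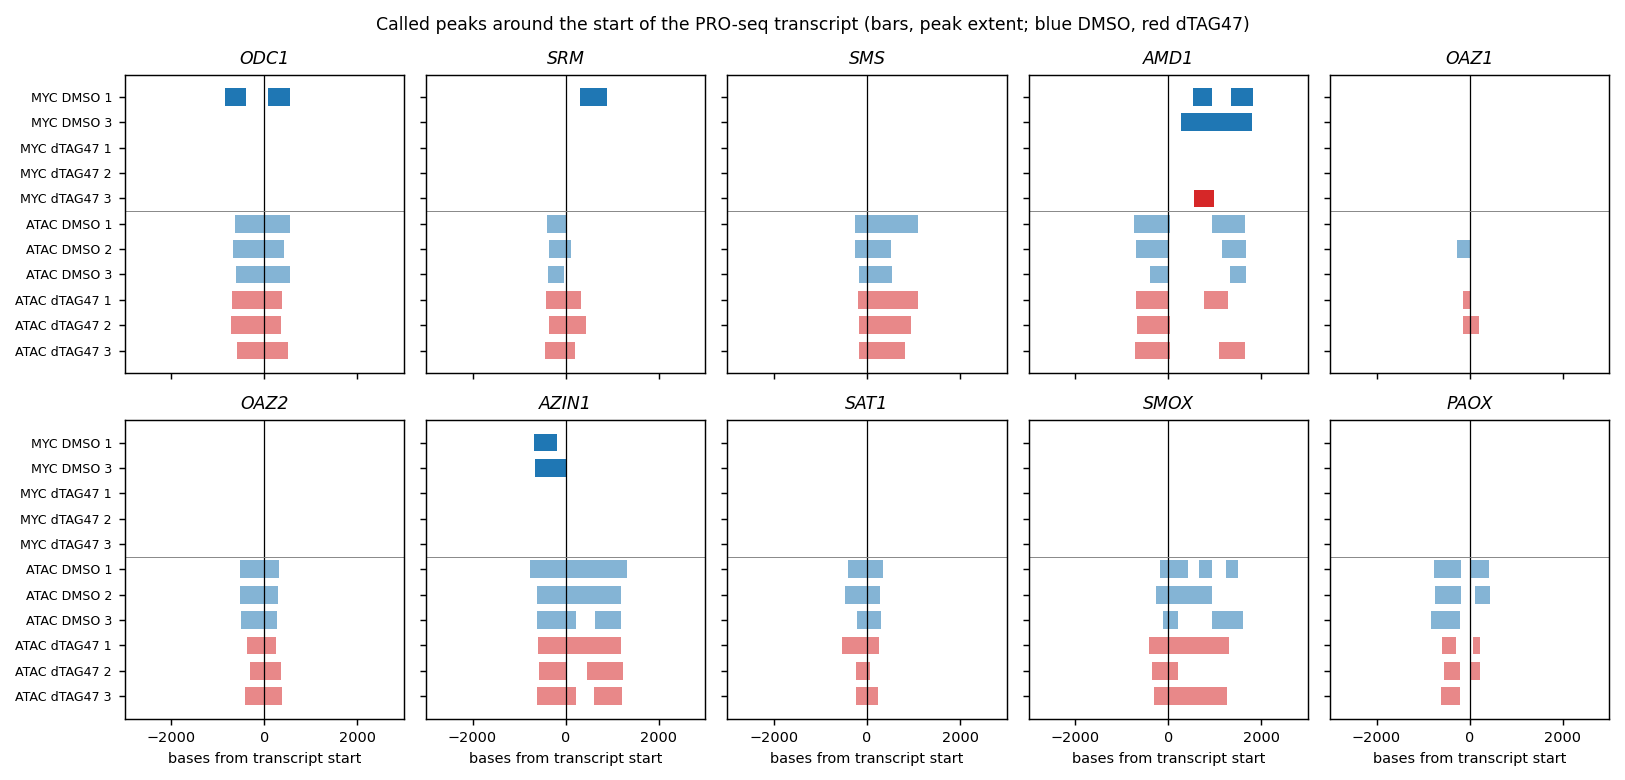
Extent of called peaks around each gene's start, with the distance in bases from the start of the PRO-seq transcript on the horizontal axis and 1 library per row (5 MYC ChIP-seq above the line, 6 ATAC-seq below; blue for DMSO, red for dTAG47). MYC peaks are seen at ODC1, SRM, AMD1 and AZIN1, and AMD1 alone has one after dTAG47.

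mRNA levels per transcript length (RPKM) ranked ODC1 first in DTMYC cells in DMSO, at 180 ± 3.40 (SD, n = 3). SRM (120 ± 12.3), OAZ1 (112 ± 6.60), SAT1 (105 ± 4.23) and AMD1 (98.1 ± 7.52) followed, and each of these lay within the spread of the next. SMS stood at 48.5 ± 2.03 and AZIN1 at 28.7 ± 2.85. The lowest were OAZ2 at 6.34 ± 0.053, SMOX at 5.89 ± 0.255 and PAOX at 2.51 ± 0.271. In parental cells in DMSO the order was ODC1, OAZ1, SRM, SAT1, AMD1, SMS, AZIN1, OAZ2, PAOX and SMOX, from 224 ± 31.4 RPKM down to 1.68 ± 0.250. There ODC1 and OAZ1 (174 ± 25.3) overlapped in their spread, as did SRM (113 ± 22.2) with SAT1 (82.6 ± 8.98) and AMD1 (45.5 ± 7.99) with SMS (36.8 ± 2.87).

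Gene body polymerase per kilobase ordered the genes differently. SAT1 held the highest density in DTMYC cells in DMSO, with 40.1 and 35.7 CPM per kilobase in the DMSO libraries, where CPM is the count scaled to the size of the library. SRM was next with 12 and 9.51, then OAZ1 with 9.88 and 9.96. ODC1, first by mRNA, had 7.05 and 6.62, close to AMD1 with 6.91 and 7.21. The densities compare genes within a library, and nothing was tested between genes.

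**Figure D2:**
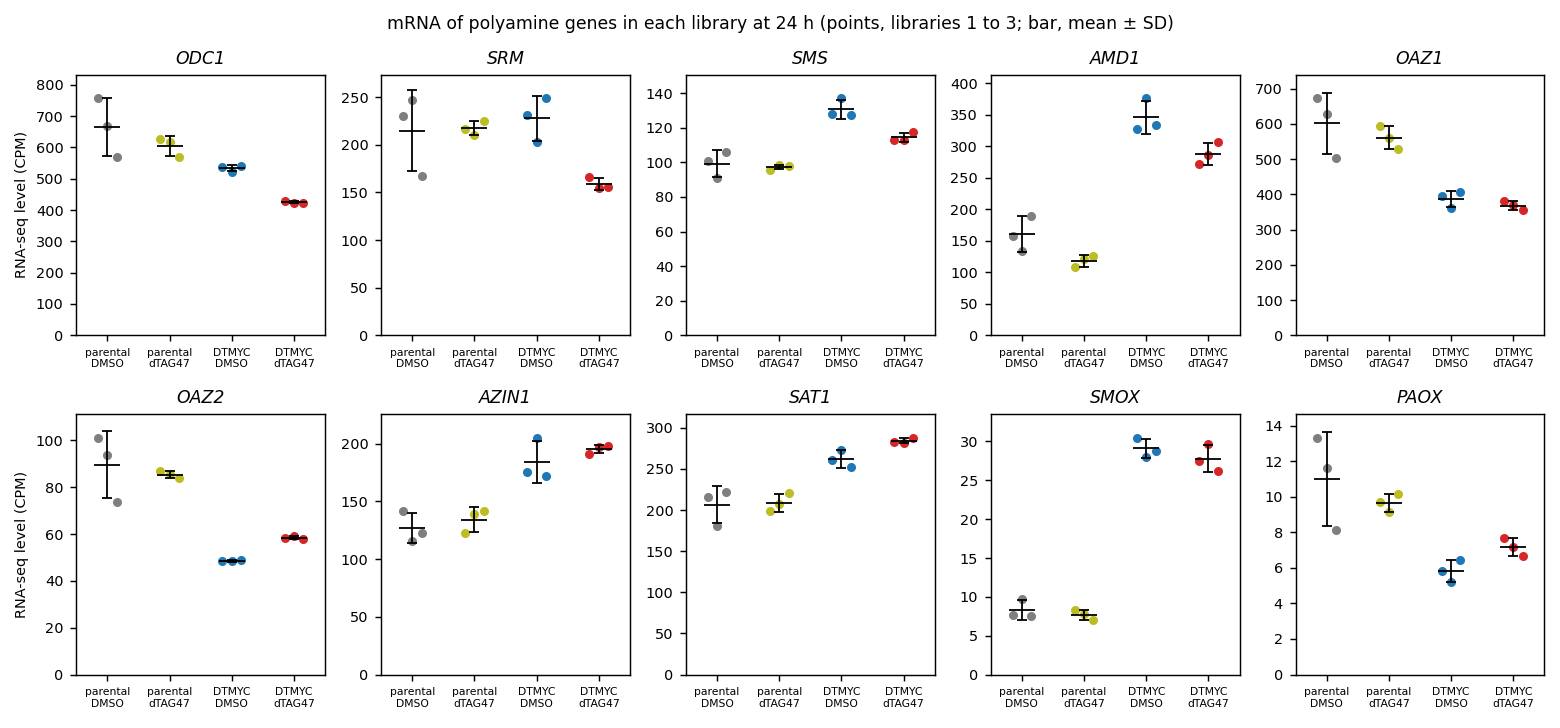
mRNA level of each gene in CPM (vertical axis from 0) in the 4 RNA-seq groups (horizontal axis), with a point per library and a bar for the mean ± SD. In DTMYC cells ODC1 and SRM lie lower in all 3 dTAG47 libraries than in all 3 DMSO libraries, and parental DMSO library 3 (rightmost grey point) lies apart for SRM, OAZ1, OAZ2 and PAOX.

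Before the changes are given, the libraries need a remark. RNA-seq totals ran from 27854207 to 54633745 counts and PRO-seq gene body totals from 18209879 to 23256313. Parental DMSO library 3 stood apart, with a mean absolute deviation of 0.289 on the log2 scale from its group's mean against 0.0842 to 0.187 in the other 11 RNA-seq libraries, so results that rest on it are given with and without it. MYC mRNA, which does not measure the degraded protein, was 1366 ± 46.2 CPM in DTMYC cells in DMSO and 1410 ± 64.7 CPM in dTAG47, against 235 ± 28.2 CPM in parental cells in DMSO. SMARCB1, the gene lost in rhabdoid tumours, had 0 to 2 gene body counts in the PRO-seq libraries. VIM lay between 609.7 and 757.8 CPM, the epithelial keratins KRT8 and KRT18 reached 5003 and 1605 CPM while the epithelial markers CDH1 and EPCAM reached no more than 5.175 and 2.418 CPM, and markers of blood, endothelial, neuronal and kidney tubule cells did not pass 3.519 CPM. The labels do not say that replicates were separate cultures, so p-values measure the spread between these libraries only.

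In DTMYC cells, 24 h of dTAG47 lowered the mRNA of 2 of the 10 genes, ODC1 and SRM, and raised 0 at an adjusted p under 0.05 (edgeR quasi-likelihood test, Benjamini-Hochberg over 13401 genes). The background was 4.44% of genes lower and 4.27% higher. ODC1, the first enzyme of the pathway, stood at 538, 523 and 541 CPM in the DMSO libraries and at 428, 422 and 423 CPM in the dTAG47 libraries. The groups did not overlap, and the log2 fold change was -0.33 ± 0.09 (SE, adjusted p = 0.0387 by edgeR). SRM, spermidine synthase, stood at 232, 203 and 249 CPM in DMSO and at 166, 155 and 156 CPM in dTAG47. Its groups did not overlap either, with a log2 fold change of -0.52 ± 0.12 (edgeR adjusted p = 0.0241).

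The other synthesis enzymes lay lower without passing the test. AMD1, which makes the aminopropyl donor, had 327, 376 and 333 CPM in DMSO and 271, 286 and 306 CPM in dTAG47, a log2 difference of -0.26 ± 0.11 (edgeR adjusted p = 0.186). SMS, spermine synthase, had 128, 137 and 127 CPM against 113, 113 and 118 CPM, a log2 difference of -0.19 ± 0.07 (edgeR adjusted p = 0.126). In neither gene did the groups overlap. So all 4 synthesis enzymes had their dTAG47 libraries below their DMSO libraries, which 20% of all genes tested did.

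Among the regulators, OAZ2 had 48.3, 48.5 and 49.1 CPM in DMSO and 58.5, 59.0 and 57.8 CPM in dTAG47, a log2 difference of 0.27 ± 0.10 (edgeR adjusted p = 0.125). Its groups were apart, but the test, which shares the spread of all 12 libraries, was not passed. OAZ1, the more abundant antizyme, differed by -0.08 ± 0.10 and AZIN1 by 0.08 ± 0.09 on the log2 scale, with overlapping groups (edgeR adjusted p = 0.707 and 0.655). Of the turnover enzymes, SAT1 had 261, 273 and 252 CPM in DMSO and 283, 282 and 288 CPM in dTAG47 (log2 difference 0.12 ± 0.08, edgeR adjusted p = 0.435). PAOX had 5.82, 5.20 and 6.45 CPM against 7.66, 7.17 and 6.67 CPM (0.30 ± 0.16, adjusted p = 0.304). SMOX overlapped between the groups (-0.07 ± 0.11, adjusted p = 0.769). OAZ2, SAT1 and PAOX were thus the 3 members whose dTAG47 libraries all lay above the DMSO libraries, as did 25.2% of all genes. Over the 10 genes the median log2 difference was -0.07, beside 0.03 over all genes tested.

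Both calls could be lost. Leaving out any one of the 6 DTMYC libraries, or of the 3 parental dTAG47 libraries, ended the ODC1 call, with edgeR adjusted p between 0.0541 and 0.132, as did RLE (0.0647) and upper-quartile scaling (0.0842). Leaving out any one DTMYC library other than DMSO library 2 ended the SRM call, with edgeR adjusted p between 0.0691 and 0.108. Over all fits without 1 library the log2 fold change of ODC1 stayed between -0.37 and -0.32 and that of SRM between -0.60 and -0.45. Without parental DMSO library 3, 5 members passed, with 29.2% of all genes called. ODC1 (-0.37 ± 0.06), SRM (-0.55 ± 0.07), AMD1 (-0.30 ± 0.07) and SMS (-0.23 ± 0.06) fell and OAZ2 (0.23 ± 0.06) rose on the log2 scale. A fit of the 6 DTMYC libraries alone called 5 members too, beside 36.5% of all genes.

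In parental cells dTAG47 moved 0 of the 10 genes past the threshold in the edgeR test, with a background of 0.127% (17 genes). At an unadjusted p under 0.05 there was 1, beside 15.5% of all genes, and DESeq2 also called 1, beside 2.23% of all genes, in both cases AMD1. AMD1 stood at 158, 134 and 190 CPM in DMSO and at 108, 121 and 125 CPM in dTAG47. Its dTAG47 libraries all lay below its DMSO libraries, as 6.63% of all genes did. Its log2 difference was -0.44 ± 0.12 (edgeR adjusted p = 0.123, DESeq2 adjusted p = 0.023). This value in cells without tagged MYC is set beside the -0.26 ± 0.11 of DTMYC cells. ODC1 (-0.14 ± 0.09), PAOX (-0.19 ± 0.15), SMOX (-0.11 ± 0.11), OAZ1 (-0.10 ± 0.10), OAZ2 (-0.07 ± 0.10) and SMS (-0.03 ± 0.07) had values below 0. SRM (0.02 ± 0.12), SAT1 (0.02 ± 0.08) and AZIN1 (0.08 ± 0.10) had values just above it.

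This comparison turned on parental DMSO library 3, where SRM stood at 167 CPM against 230 and 247 CPM in the other DMSO libraries, OAZ1 at 504 against 673 and 627, OAZ2 at 73.8 against 101 and 94.0, and PAOX at 8.14 against 13.3 and 11.6. Without it, 5 members fell and 0 rose, beside 1478 genes that fell and 1240 that rose of 13521 (20.1% called in all). They were AMD1 (-0.31 ± 0.08), ODC1 (-0.25 ± 0.07), OAZ1 (-0.22 ± 0.07), OAZ2 (-0.20 ± 0.06) and PAOX (-0.37 ± 0.10), on the log2 scale. AMD1 was also called without parental DMSO library 2 (-0.56 ± 0.10, edgeR adjusted p = 0.0217).

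The difference between the responses of the lines was tested directly, as the interaction of line and compound. It was past the threshold for 0 of the 10 genes in edgeR, beside 1.19% of all genes, and for 0 in DESeq2, while 2 members, SRM and OAZ2, had an unadjusted p under 0.05, close to the 19.2% of all genes that did. For SRM the difference of the responses was -0.53 ± 0.18 on the log2 scale (edgeR adjusted p = 0.129), so its fall was not shown to differ between the lines. For OAZ2 the difference was 0.34 ± 0.14 (adjusted p = 0.218) and for PAOX 0.49 ± 0.22 (adjusted p = 0.261). ODC1 gave -0.19 ± 0.13 (adjusted p = 0.424) and AMD1 0.18 ± 0.16 (adjusted p = 0.575). Without parental DMSO library 3 the interaction was called for SRM (-0.41 ± 0.10), OAZ2 (0.43 ± 0.08) and PAOX (0.63 ± 0.15), beside 17.9% of all genes. In that fit ODC1 (-0.12 ± 0.09) and AMD1 (0.02 ± 0.11) were not called.

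**Figure D3:**
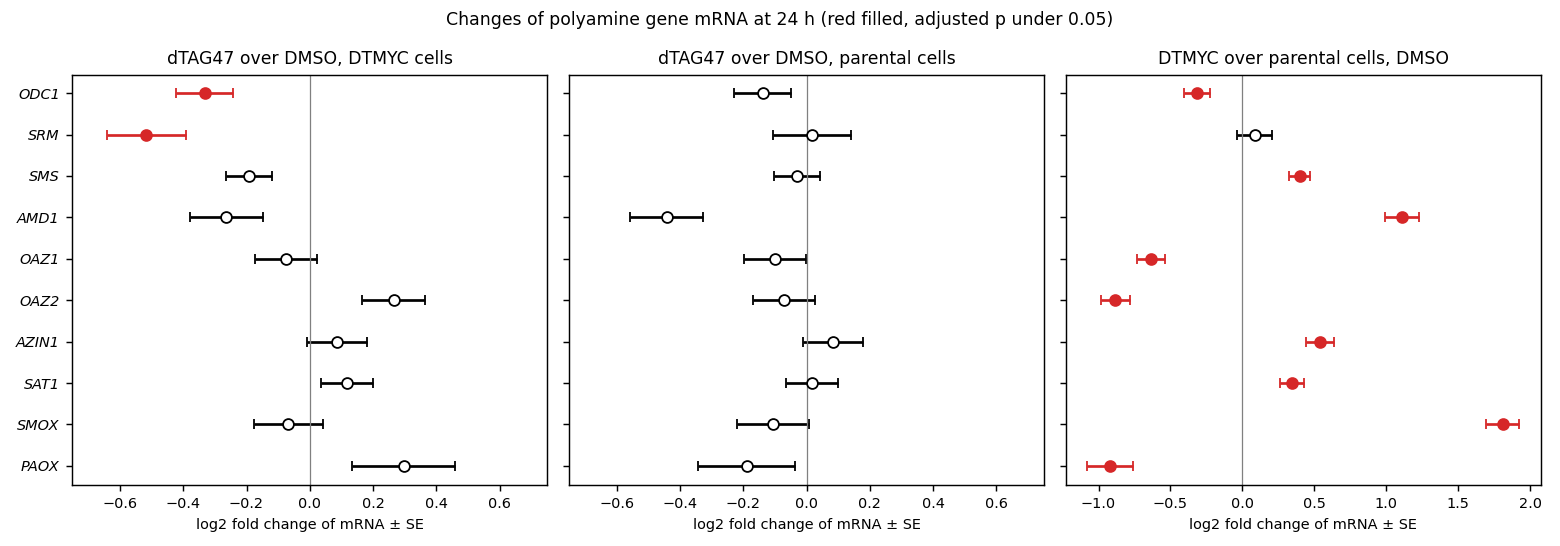
log2 fold change of mRNA at 24 h with its SE (horizontal axis) for each gene, for dTAG47 over DMSO in DTMYC cells, the same in parental cells, and DTMYC over parental cells in DMSO (wider axis). Red filled points have an edgeR adjusted p under 0.05: ODC1 and SRM in the left panel, 0 genes in the middle panel and 9 of 10 in the right panel.

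The lines themselves differed at most of the 10 genes. In DMSO 5 members were higher and 4 lower in DTMYC than in parental cells, beside 36% of all genes higher and 37.3% lower, so that a call here was common. SMOX, which turns spermine back into spermidine, had 30.5, 28.1 and 28.7 CPM in DTMYC and 7.68, 9.72 and 7.49 CPM in parental cells. These groups were far apart, with a log2 fold change of 1.81 ± 0.11 (edgeR adjusted p = 2.78e-08). AMD1 was higher by 1.11 ± 0.12, AZIN1 by 0.54 ± 0.10, SMS by 0.40 ± 0.07 and SAT1 by 0.34 ± 0.08 on the log2 scale. PAOX (-0.92 ± 0.16), OAZ2 (-0.88 ± 0.10), OAZ1 (-0.63 ± 0.10) and ODC1 (-0.32 ± 0.09) were lower. SRM did not pass the test (0.08 ± 0.12, edgeR adjusted p = 0.554). Without parental DMSO library 3 the same 9 members were called in the same directions, beside 81.4% of all genes. ODC1 then stood at -0.43 ± 0.07, OAZ1 at -0.76 ± 0.07, OAZ2 at -1.02 ± 0.06, PAOX at -1.10 ± 0.11 and SMOX at 1.72 ± 0.11, and SRM, still not called, at -0.08 ± 0.07. Without parental DMSO library 1 ODC1 stood at -0.21 ± 0.08 and kept its call.

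In dTAG47 all 10 genes passed the test between the lines, 5 higher (background 37.4%) and 5 lower (38.9%). SRM was now among the lower ones, at 159 ± 6.21 CPM in DTMYC and 218 ± 7.71 CPM in parental cells (log2 fold change -0.45 ± 0.12, edgeR adjusted p = 0.00531). ODC1 was lower by a log2 fold change of -0.51 ± 0.09, and SMOX (1.85 ± 0.11) and AMD1 (1.29 ± 0.12) were again higher. PAOX (-0.43 ± 0.16, adjusted p = 0.0245) lost its call without DTMYC dTAG47 library 2 or 3 and without parental dTAG47 library 1 or 3 (adjusted p up to 0.0809). Upper-quartile scaling shifted the median of all genes from -0.03 to -0.18 here and ended the SMS call (adjusted p = 0.322).

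PRO-seq at 4 h asks whether transcription of these genes had moved before the mRNA was measured. In gene bodies the edgeR test called 0 of the 10 genes and 0% of 13397 entries, although 1298 entries (9.69%) had an unadjusted p under 0.05 and DESeq2 called 67 entries and 0 members. SRM, ODC1 and AMD1 were the 3 members with an unadjusted p under 0.05. SRM had 53.3 and 42.3 CPM in DMSO and 35.1 and 26.8 CPM in dTAG47, a log2 difference of -0.63 ± 0.18 (edgeR adjusted p = 0.437). ODC1 had 49.0 and 46.0 CPM against 39.7 and 33.0 CPM, a log2 difference of -0.38 ± 0.13 (edgeR adjusted p = 0.47). AMD1 had 138 and 144 CPM against 116 and 122 CPM (-0.24 ± 0.08, edgeR adjusted p = 0.47). In these 3 genes both dTAG47 libraries lay below both DMSO libraries, as they also did for OAZ1 (29.3 and 29.6 against 29.0 and 25.8 CPM). Of all entries, 19.3% did so. The edgeR fit behind these values had no replicate block. With replicate number as a block, 7 of the 10 genes were called, beside 4360 of 13397 entries, as described in the last section.

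OAZ2 had 41.9 and 42.2 CPM in DMSO and 48.8 and 50.2 CPM in dTAG47, a log2 difference of 0.23 ± 0.10 (edgeR adjusted p = 0.518). PAOX (0.33 ± 0.18) and SMOX (0.17 ± 0.11) also had both dTAG47 libraries above both DMSO libraries, as did 20.6% of all entries. Leaving out 1 library moved PAOX between 0.14 (without DMSO library 1) and 0.54 (without DMSO library 2) and SMOX between 0.09 (without DMSO library 2) and 0.26 (without DMSO library 1). SMS (-0.15 ± 0.11), SAT1 (0.04 ± 0.10) and AZIN1 (0.01 ± 0.08) overlapped between the groups. For 9 of the 10 genes the sign of the 4 h value was that of the 24 h mRNA value in DTMYC cells, and SMOX was the exception. The 4 h values of AZIN1 and SAT1 lay near 0. Leaving out 1 library moved AZIN1 between -0.08 and 0.06 and SAT1 between -0.04 and 0.13, so their signs could change. The share of all genes with matching signs was not counted. The assays used separate libraries, and the count of signs was not tested.

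**Figure D4:**
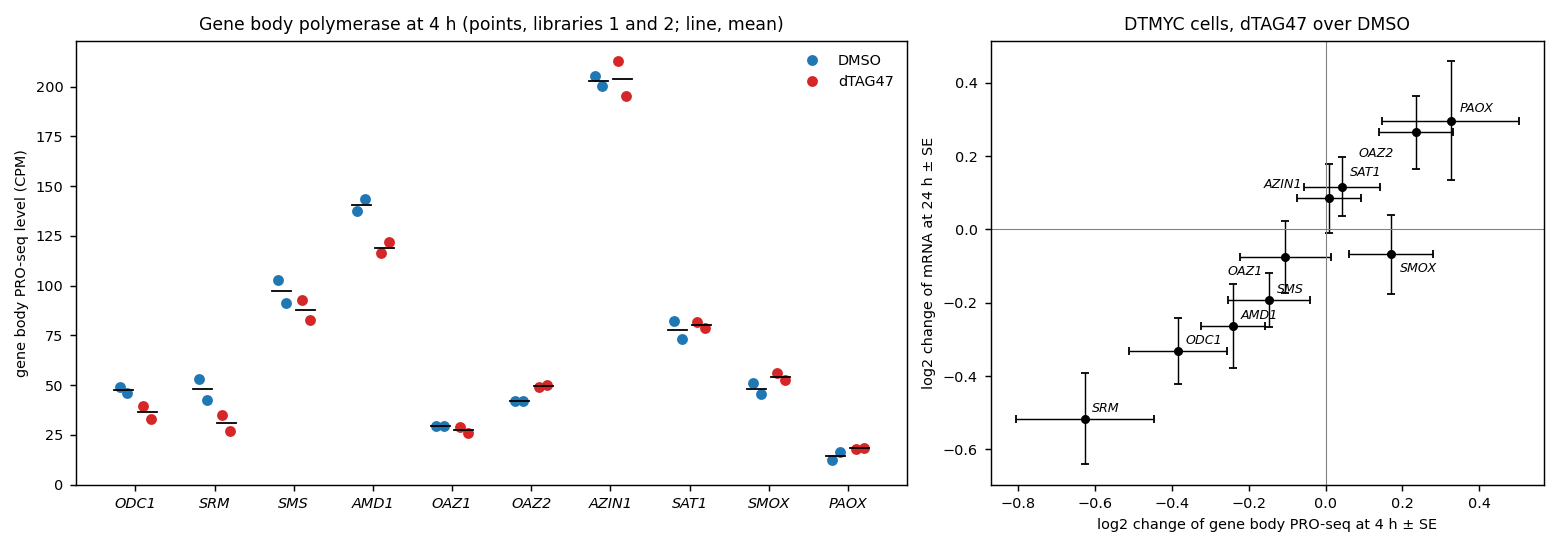
Left, gene body PRO-seq level in CPM (vertical axis from 0) in each DTMYC library at 4 h, with a line for the mean of 2 libraries. Right, log2 change with dTAG47 of gene body PRO-seq at 4 h (horizontal) and of mRNA at 24 h (vertical), each with its SE. SRM (-0.63 and -0.52) and ODC1 (-0.38 and -0.33) lie lowest on both axes, and OAZ2 and PAOX highest.

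Close to the promoter, where polymerase pauses, edgeR called 0 of the 10 genes and 0% of 10226 entries (661, or 6.46%, at an unadjusted p under 0.05, and 2 by DESeq2). SRM gave -0.38 ± 0.27, OAZ2 0.35 ± 0.20 and ODC1 -0.19 ± 0.28 on the log2 scale. Leaving out 1 library moved SRM between -0.76 (without dTAG47 library 1) and -0.07 (without DMSO library 1), and ODC1 between -0.42 (without dTAG47 library 2) and -0.01 (without dTAG47 library 1). Promoter-proximal counts made up 4.51% and 4.87% of the ODC1 counts in DMSO and 3.21% and 6.71% in dTAG47, which overlap. For SRM the shares were 9.69% and 9.74% against 9.58% and 10.5%. PAOX had 29.4% and 30.7% in DMSO and 16.8% and 25.1% in dTAG47. The test of pausing, promoter-proximal against gene body, called 0 members and 0% of 10129 entries (160, or 1.58%, at an unadjusted p under 0.05). Its SE for the members ran from 0.35 (AMD1) to 0.46 (ODC1) on the log2 scale. With the gene body scaling used for both regions, 7 members had values below 0 and 3 above, and the median was -0.11, beside -0.17 over all entries. With each region scaled by its own factors, 2 were below and 8 above, the median was 0.08 beside 0.02 over all entries, and SE ran from 0.20 (SMOX) to 0.30 (ODC1). PAOX lay below 0 under both, at -0.71 ± 0.38 and -0.52 ± 0.25, and leaving out 1 library moved it between -1.09 and -0.36. DESeq2 was not run for this test.

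Around the pathway, 27 of 28 further listed genes were found in the RNA-seq table and 26 were tested. In DTMYC cells dTAG47 lowered 1, MAT2A, and raised 1, AZIN2, near the 4.44% of all genes lower and 4.27% higher. The median log2 difference was -0.11, beside 0.03 over all genes tested. MAT2A makes the S-adenosylmethionine that AMD1 decarboxylates, and it had 380, 368 and 359 CPM in DMSO and 297, 301 and 286 CPM in dTAG47. That is a log2 fold change of -0.32 ± 0.07 (edgeR adjusted p = 0.012). AZIN2, a relative of AZIN1, was low, with 2.97, 2.70 and 2.98 CPM against 4.28, 3.63 and 3.94 CPM (0.45 ± 0.12, edgeR adjusted p = 0.0422). The AZIN2 call was lost with RLE, upper-quartile scaling, DESeq2 and no filter. It was also lost without any single DTMYC or parental dTAG47 library. The MAT2A call was lost without DTMYC DMSO library 1 and without any single DTMYC dTAG47 library. EIF5A, the translation factor that receives hypusine made from spermidine, had -0.29 ± 0.09 (adjusted p = 0.064). The hypusine enzymes DHPS and DOHH had -0.10 ± 0.11 and -0.19 ± 0.13. In parental cells 0 of the 26 passed in the edgeR test, beside 0.127% of all genes. MAT2A stood there at -0.06 ± 0.07 and EIF5A at 0.06 ± 0.09. Without parental DMSO library 3, 3 of the 26 rose and 7 fell in DTMYC cells, beside 1711 and 2240 of 13521 genes (29.2% called in all). In parental cells 1 rose and 4 fell, beside 1240 and 1478 of 13521 genes (20.1% called in all).

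Of the 28 further listed genes, 8 had a MYC region of the DMSO libraries at a start site. The background was 17.4% of all protein-coding genes and 25.2% of those tested in RNA-seq. MAT2A, EIF5A and ENOPH1, an enzyme of methylthioadenosine recycling, scored higher at such a region than any of the 10 genes in both DMSO libraries. MAT2A scored 481 and 311 in the DMSO libraries, rank 14 of 1068, EIF5A 568 and 305, rank 16, and ENOPH1 448 and 181, rank 61. All 3 kept peaks in dTAG47 libraries 1 and 3, with scores of 91 and 112 for MAT2A, 112 and 111 for EIF5A and 78 and 48 for ENOPH1. The single CACGTG of the MAT2A region and that of the EIF5A region lie in an intron of the canonical transcript. Both also overlap an untranslated region of another transcript. Unlike those of ODC1 and SRM, they lie outside the central 300 bases of their regions, which are longer, at 1751 and 1025 bases.
MAT2A, chr2:85766921-85766946, plus strand: cagcggcgacCACGTGtttgccgcat
EIF5A, chr17:7211415-7211440, plus strand: tcagcgcggcCACGTGaggtggggga

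In gene bodies at 4 h, MAT2A had 210 and 184 CPM in DMSO and 154 and 137 CPM in dTAG47, a log2 difference of -0.44 ± 0.11, and EIF5A -0.39 ± 0.13, neither past the threshold (edgeR adjusted p = 0.428 and 0.468). Of the 26 genes, 9 were higher and 9 lower in DTMYC than in parental cells in DMSO, near the 36% and 37.3% of all genes. MTAP, which recycles the methylthioadenosine left by SRM and SMS, was higher by 1.91 ± 0.12 on the log2 scale, ATP13A3 by 1.67 ± 0.20, EIF5A2 by 1.36 ± 0.19 and MAT2A by 0.49 ± 0.07. AZIN2 (-1.63 ± 0.12), SAT2 (-1.45 ± 0.13), MAT1A (-4.11 ± 0.48) and DHPS (-0.86 ± 0.11) were lower, as was EIF5A (-0.44 ± 0.09), and DOHH was not called (0.07 ± 0.13). MAT1A was near the floor, at 0.09 ± 0.07 CPM in DTMYC and 1.66 ± 0.32 CPM in parental cells in DMSO.

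For 3 members the genes with the most similar mRNA pattern over the 12 RNA-seq libraries were looked up, by Pearson's r of log2 CPM among 9957 genes. ODC1 was most like CHID1 (0.992), C8orf33 (0.991) and NXT1 (0.991). SRM was most like C9orf69 (0.978), GRWD1 (0.975) and C11orf24 (0.962). SAT1 was most like PRKAG2 (0.985), PIGX (0.980) and RALGAPB (0.980). The 12 points fall into 4 groups, so these values mostly follow the group means.

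Some counts carry a limit of identity. GENCODE lists processed copies of SRM (3), AMD1 (4), SMS (1) and OAZ1 (1), and reads from a gene and such a copy could be split by the counting. OAZ1 overlaps JSRP1 and OAZ2 and AZIN1 overlap long non-coding genes on the opposite strand, and whether the RNA-seq counting used strand is not given in the sources used here. SAT1, PAOX, OAZ1 and AZIN1 also have exons that overlap the span of a second protein-coding entry on the same strand.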

How the data were processed

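The authors deposited whole-number read counts per gene for RNA-seq and, for PRO-seq, counts for promoter-proximal regions and gene bodies with a gene body density signal, from which the gene body length was taken. The deposited peak lists give a score per peak, called for each library alone. Tools named in the submitters' processing notes are cutadapt, Bowtie2, STAR, featureCounts, MACS2, DiffBind and DESeq2, with the build hg19. What each tool did, and its version, is not given in the sources used here. The labels name a MYC antibody, and the names of the peak lists say HA. The IgG libraries were not analysed here.

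Tests on the counts used edgeR 4.0.16 under R 4.3.3 (filterByExpr, TMM, quasi-likelihood F-test, two-sided, Benjamini-Hochberg, threshold 0.05). One fit held the 12 RNA-seq libraries, and the 4 PRO-seq libraries had a fit for each region. The pausing test asked whether treatment changed the promoter-proximal counts relative to the gene body counts, with library as a block. Each SE was derived from the log2 fold change and its F value. CPM uses effective library sizes, and log2 CPM a prior count of 2. The scripts were tested on simulated data. Alternatives were RLE and upper-quartile scaling, DESeq2 1.42.0, no filter, a replicate block, fewer groups and each library left out. Start sites were from GENCODE v44 on GRCh37, the build of the files.

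The 10 genes and the list of 28 further pathway genes were chosen with earlier results of these data known. Named further genes are those past the threshold, at most 8 per comparison by smallest p, with MAT2A, DHPS, DOHH and EIF5A in any case, and the 3 genes most like ODC1, SRM and SAT1 with at least 5 CPM on average. ENOPH1 is an exception, since it passed the threshold in no main comparison and is named for its MYC peak scores.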

Additional observations from a re-analysis of the deposited data

How the results depend on the processing

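No result reversed. Of 1160 alternative values for single members, 1055 kept direction and side of the threshold, 61 changed the sign of a value that was not called, 23 gained a call and 21 lost one; the cause was not tested. In DTMYC cells 2 members were called in the main fit, 1 with RLE and 1 with upper-quartile scaling, and 5 with only the libraries compared, where genes called went from 1167 to 4593. Without one library these counts ran from 0 to 5 members and from 329 to 3951 genes. In parental cells members called went from 0 to 1 with DESeq2 and ran from 0 to 5 without one library. Genes called there went from 17 to 7 (RLE), 37 (upper quartile), 299 (DESeq2), 5 (replicate block) and 0 (only the libraries compared), and ran from 0 to 2718 without one library. For the interaction 159 genes became 63 (RLE), 58 (upper quartile), 583 (DESeq2), 102 (no filter) and 79 (replicate block), and without one library 5 to 2417 genes and 0 to 3 members were called.

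In PRO-seq gene bodies, 0 genes became 67 (DESeq2), 2 (no filter) and 4360 (replicate block), and 5 to 44 without one library. Near the promoter 0 became 2 (DESeq2), 2 (no filter) and 262 (replicate block), and 1 to 5 without one library. The replicate block called 7 members in gene bodies, beside 2134 entries lower and 2226 higher of 13397. ODC1, SRM, AMD1 and SMS were lower and OAZ2, PAOX and SMOX higher. The numbers are not taken as pairing, since the labels name no shared batch. Deviations of same-numbered libraries correlated at 0.64 in PRO-seq, a value in the direction of pairing that rests on a single pair. In RNA-seq they correlated at 0.32, 0.05 and 0.37 in parental and 0.08, -0.01 and -0.05 in DTMYC cells. The replicate block changed no other call of a member.

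With peaks required in both DMSO libraries, or without DMSO library 1, 2 members rather than 4 had a MYC region, and leaving out either DMSO library gave 2 to 4. With a reciprocal overlap of 50%, 0 members rather than 1 kept a region after dTAG47, and the AMD1 peak of DMSO library 1 no longer counted, which left AZIN1 with both DMSO libraries. Where leaving out a PRO-seq library left 1 in a group, it is assumed to vary like the other group. The depth behind the peak lists is unknown.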
